A study of Mus musculus with 17 samples.

Results

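The globin genes of the mouse were examined at their transcription start sites, in libraries of DNA fragments that micrococcal nuclease (MNase) left in embryonic stem (ES) cells and in sperm. MNase cuts DNA that protein does not hold, so fragments of nucleosome size are read as DNA held in nucleosomes. A stretch without such fragments need not be free of protein. The genes were taken by symbol: 8 were named (Hbb-y, Hbb-bh1, Hbb-bh2, Hbb-b1 and Hbb-b2 of the beta-like cluster, Hba-x, Hba-a1 and Hba-a2 of the alpha-like cluster), 7 of them matched a row, out of 21359 genes with a symbol, and Hbb-b1 was not analysed here. They were named with the difference between ES cells and standard sperm already known, so values for that contrast are given as a description with no test. The ES cells were the E14 line, of the background 129 X Ola, and their library came from the supernatant of a spun digest. The standard sperm library was a supernatant too, from C57/B6J sperm of the age of 10 weeks. A further 12 sperm libraries of the same strain and age were digested with stated units of MNase: unspun digests at 0.5, 2, 10 and 50 units, and supernatants and pellets at 1, 5, 20 and 100 units each. Each group was 1 library, so differences have no replicate check, and the 95% intervals below cover counting error only.

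The supernatant libraries of the main contrast differed in more than cell type. Per the labels, sperm were crosslinked with formaldehyde before digestion and the ES cell protocol names no crosslinking, the ES cell digest used 1000 times more enzyme per cell, and the strains differ. What belongs to cell type and what to these conditions cannot be told apart. An average start site held 32.2 fragments within 1000 bp in ES cells and 21.6 in standard sperm, against 0.659 to 0.813 in each unspun library, so single globin genes could be described in the first pair of libraries and only pooled genes in the others.

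Haemoglobin is a tetramer of alpha-like and beta-like chains, each encoded in a cluster whose genes are switched on in turn during development. Embryonic red cells use Hbb-y, Hbb-bh1 and Hba-x, whereas later red cells use the adult beta genes and the adult alpha genes Hba-a1 and Hba-a2, and neither ES cells nor sperm make haemoglobin. The adult beta genes have different names by haplotype: Hbb-bs and Hbb-bt are the pair of the C57BL/6 haplotype, and Hbb-b1 and Hbb-b2 name the pair of another.

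In the deposited coordinates, in mm9, the beta-like start sites lay on chromosome 7: Hbb-y at 111001721, Hbb-bh1 at 110991676, Hbb-bh2 at 110989035 and Hbb-b2 at 110962417. The Hbb-b2 start site lay 20 bp from that of Hbb-bt, so the row named Hbb-b2 measured the DNA of Hbb-bt. On chromosome 11, Hba-x lay at 32176599. The Hba-a1 and Hba-a2 transcripts were each placed at both adult alpha copies, at 32183671 and 32196488 for Hba-a1 and 3 bp further along for Hba-a2. Each copy was therefore counted once, as the near copy (7072 bp from Hba-x) and the far copy (a further 12817 bp away), which left 7 distinct start sites, 4 beta-like and 3 alpha-like.

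The DNA just before the start sites is shown because ES cells were empty over that of Hbb-y and sperm over that of Hba-x. Of the 8 named genes 5 had an entry in the RefSeq promoter table of GRCm38.p6, and the entry of Hbb-bt stands for the DNA measured under Hbb-b2. Start sites were spaced alike in that table and in the deposited mm9 tables, for example 12686 bp between Hbb-y and Hbb-bh2 in each. The 120 bases before the start site are given from 5′ to 3′ on the strand of the gene: Hbb-y (chr7:103853208-103853327, minus strand), Hbb-bh2 (chr7:103840522-103840641, minus strand), Hbb-bt (chr7:103813924-103814043, minus strand), Hba-x (chr11:32276480-32276599, plus strand) and Hba-a1 (chr11:32283552-32283671, plus strand). Capitals mark CACCC (the box that Krüppel-like factors bind), the CCAAT box, the TATA-box letters TATAA with the variant ATAAA, and GATAA, the core letters of a GATA site, each searched on both strands. Where the variant follows the TATA-box letters by 1 base the capitals overlap.
Hbb-y: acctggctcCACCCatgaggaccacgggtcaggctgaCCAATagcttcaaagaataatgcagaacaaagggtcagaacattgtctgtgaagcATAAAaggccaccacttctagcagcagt
Hbb-bh2: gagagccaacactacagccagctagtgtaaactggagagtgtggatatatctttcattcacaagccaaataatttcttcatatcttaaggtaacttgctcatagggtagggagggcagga
Hbb-bt: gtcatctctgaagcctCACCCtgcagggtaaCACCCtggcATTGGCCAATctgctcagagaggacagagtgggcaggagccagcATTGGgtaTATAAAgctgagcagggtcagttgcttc
Hba-x: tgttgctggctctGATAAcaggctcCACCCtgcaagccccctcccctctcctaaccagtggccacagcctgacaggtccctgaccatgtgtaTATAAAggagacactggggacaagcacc
Hba-a1: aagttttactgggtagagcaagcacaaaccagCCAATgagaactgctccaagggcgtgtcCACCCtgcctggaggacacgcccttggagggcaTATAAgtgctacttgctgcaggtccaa

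Each of these stretches except that of Hbb-bh2 held a CACCC and either TATAA or ATAAA. Over the same 120 bases of 32851 RefSeq promoters, CACCC on either strand occurred in 31.7%, CCAAT in 21.3%, TATAA in 11.8%, ATAAA in 20.2% and GATAA in 10.5%. In Hbb-y the CCAAT ran from 83 to 79 bases before the start and the ATAAA from 28 to 24, with the CACCC farther upstream. In Hba-x a CACCC lay 95 to 91 bases before the start and a TATAA 28 to 24, with a GATAA farther upstream and no CCAAT in the window. None of the 5 motifs was found in the Hbb-bh2 stretch, which says only that those letters are not in these 120 bases. The beta-like promoters in the table were poor in CpG. Over the 300 bases of the table Hbb-y held 1 CpG, Hbb-bt 1, Hbb-bs 2 and Hbb-bh2 4, against a median of 7 over all promoters. The promoters of Hba-a1 and Hba-a2 held 4 CpG each and that of Hba-x 2, also below this median. The theta-like globin genes Hbq1a and Hbq1b, beside the adult alpha copies, held 8 and 13, above it. Hba-x was classed by the authors with the high-CpG promoters (HCP) all the same. Hbb-y and Hbb-bh1 were classed low-CpG (LCP), and the others of the 7 start sites carry no class. The 300-base promoters of Hba-a1 and Hba-a2 shared an identical run of 297 bases.

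Levels are given as fragment equivalents, the summed signal divided by the 22 that an isolated fragment adds. Within 1000 bp and relative to the library total, sperm held more fragments at the beta-like genes than ES cells did, and the intervals of the alpha-like genes included no difference. Hbb-y, the epsilon-like gene used in the yolk sac, held 24.2 fragments within 1000 bp in ES cells and 62.7 in sperm. Scaled to library totals, the log2 ratio of sperm to ES cells was 1.92 (95% interval 1.27 to 2.71). Hbb-bh1, another early embryonic gene, held 10.9 and 49.5 fragments, for a ratio of 2.66 (1.77 to 3.82) on the log2 scale, the highest of the 7 start sites. Hbb-bh2 held 22.955 and 59.2 fragments, a log2 ratio of 1.91 (1.22 to 2.70). At Hbb-b2, which encodes an adult chain, the counts were 11.9 and 21.5, and the log2 ratio was 1.38 (0.37 to 2.60). The intervals of these 4 ratios lie above 0 and overlap one another, so their order is not resolved by counting.

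All 4 beta-like start sites were at least 2-fold higher in sperm, as were 7.61% of all 21359 genes, 12.4% of genes with a low-CpG start site and 3.03% of those with a high-CpG one. Because the genes were chosen on this contrast, the background share is given only for scale. The 4 log2 ratios had a median of 1.91, against -0.06 over all genes and 0.24 over low-CpG genes. Of the 21359 genes, 0.449% had a higher log2 ratio than Hbb-bh1, 1.18% than Hbb-y, 1.19% than Hbb-bh2 and 3.36% than Hbb-b2. Pooled, the beta-like start sites held 69.9 fragments in ES cells, 0.543 times the level of an average start site, and 192.95 in sperm, 2.24 times it. That pooled log2 ratio was 2.03 (1.64 to 2.46). Against an average start site the ES cell level was below it (interval 0.424 to 0.688) and the sperm level above it (1.93 to 2.58). Low-CpG start sites as a class stood at 1.30 times the average in ES cells and 1.61 times in standard sperm. Olfactory receptor genes of chromosome 7 stood at 1.16 and 1.85 times, and the 10 genes nearest to the cluster at 0.837 and 2.12 times. A sperm level above average was thus not particular to the globins.

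Of the adult beta genes in the C57BL/6 haplotype, Hbb-bs held 13.7 fragments in ES cells and 32.955 in sperm, a log2 ratio of 1.79 (0.87 to 2.83). Hbb-bt, measured on nearly the same bins as Hbb-b2, held 11.9 and 21.9, a log2 ratio of 1.40. The sperm level of Hbb-b2 was close to that of an average start site, at 0.999 times it, whereas Hbb-y, Hbb-bh1 and Hbb-bh2 stood at 2.29 to 2.91 times it. Reads of 129 X Ola cells were aligned to mm9, which is a C57BL/6 assembly, and the part of strain differences in the low ES cell signal was not tested.

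At the alpha-like genes no difference between the libraries was resolved in this window, and the intervals of the adult copies include 2-fold differences in either direction. Hba-x, the zeta-like embryonic alpha gene, held 46.955 fragments in ES cells and 28.8 in sperm, a log2 ratio of -0.11 (-0.84 to 0.58). The near adult alpha copy held 9.55 and 6.18 fragments, and the far copy 8.73 and 3.73, with log2 ratios of 0.02 (-1.90 to 1.44) and -0.46 (-2.75 to 1.25). Within 2000 bp the near copy held 38.4 fragments in ES cells and 46.045 in sperm, a log2 ratio of 0.73 (0.09 to 1.40), and the far copy stood at 0.11 (-0.57 to 0.78). None of the 3 was 2-fold lower in sperm, as 8.7% of all genes were. Pooled, they stood at 0.676 times an average start site in ES cells and 0.599 times in sperm, for a log2 ratio of -0.16 (-0.77 to 0.43). Within the cluster Hba-x stood apart from the adult copies in both libraries: it was at 1.46 and 1.34 times an average start site in ES cells and sperm, the near copy at 0.297 and 0.287 and the far copy at 0.271 and 0.173.

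**Figure D1:**
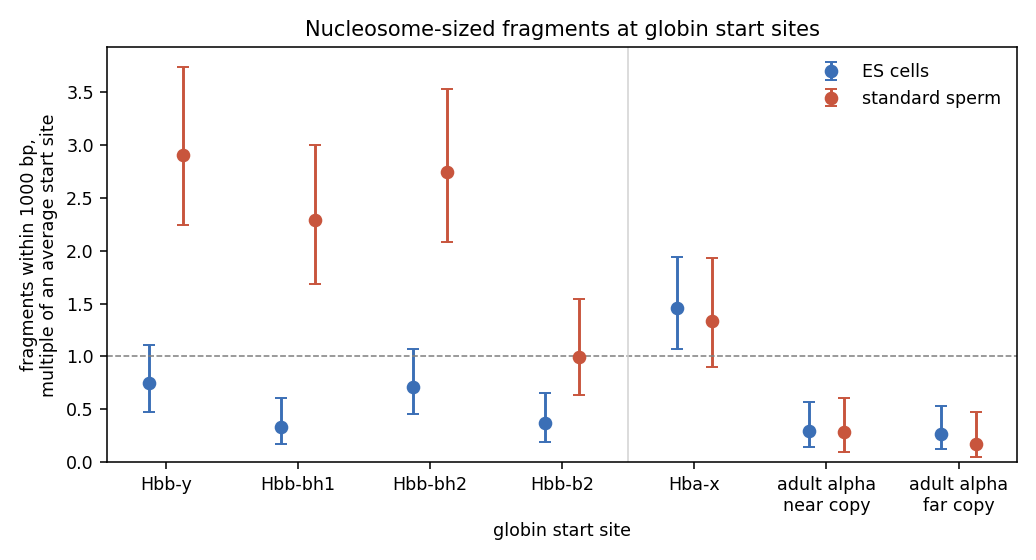
Fragments within 1000 bp of each of the 7 globin start sites, as a multiple of an average start site of the same library (y axis), in ES cells (blue) and standard sperm (red); bars are exact 95% Poisson intervals of the fragment count and the dashed line is the average start site. Hbb-y, Hbb-bh1 and Hbb-bh2 stand at 2.29 to 2.91 in sperm and 0.338 to 0.752 in ES cells, whereas at the alpha-like start sites the intervals of the libraries overlap.

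At the start sites themselves Hbb-y and Hba-x showed opposite gaps. At Hbb-y no fragment covered the stretch from 140 bp before to 140 bp after the start site in ES cells, and within 200 bp the library held 0.273 fragments against 9.86 in sperm. The log2 ratio in this narrow window was 3.76, with a lower limit of 1.83. In sperm every one of the 200 bins of the Hbb-y window held signal, and over the 120 bases printed above the deposited pileup was 12 to 16 per bin, against 0 in ES cells. At Hba-x it was the sperm library that was empty, from 180 bp before to 160 bp after the start site, with 0.182 fragments within 200 bp against 10.1 in ES cells. Its narrow log2 ratio was -2.56, with an upper limit of -0.50, and every bin of the Hba-x window held signal in ES cells.

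A gap of that kind was common by itself, whereas a gap in one library with as much signal in the other was found at few start sites. ES cells were empty over the same 280 bp at 16.7% of 24084 start sites and at 2.29% of the 2837 low-CpG ones. At 9 of the 24084, Hbb-y included, standard sperm also held at least as many fragments within 200 bp as at Hbb-y. Sperm were empty over the 340 bp seen at Hba-x at 18.967% of start sites and at 23.1% of the 10566 high-CpG ones, and at 20 of the 24084, Hba-x included, ES cells also held at least as many fragments there. These counts describe genes picked on the same pair of libraries and carry no test.

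The other beta-like genes were not empty at the start site in either library. The 200 bp on each side of Hbb-bh1 held 3.23 fragments in ES cells and 9.09 in sperm, those of Hbb-bh2 2.32 and 5.64, and those of Hbb-b2 6.55 and 7. At Hbb-b2 the log2 ratio in this narrow window was 0.75, with an interval that includes 0 (-1.07 to 2.41). The signal over the 200 bp upstream, divided by that of the flanks 1000 to 2000 bp away, was 4.05 at Hbb-b2 in ES cells and 1.99 in sperm, whereas low-CpG start sites as a class had 0.926 and 0.851. At Hba-x that upstream ratio was 0.419 in ES cells and 0.0123 in sperm, against 0.346 and 0.291 for high-CpG start sites as a class. Over the 300 bp downstream Hba-x had ratios of 1.22 and 0.270, and the high-CpG class 0.316 and 0.169.

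At each of the beta-like genes the highest sperm signal lay away from the start site. Positions are those of the highest bin within 1000 bp on each side, after smoothing over 5 bins. The sperm profile of Hbb-y was highest 340 bp before the start site, at 4.68 times the library mean, and on the other side it was still rising at the 1000 bp limit. Hbb-bh1 had its highest sperm bins 980 bp before and 840 bp after the start site, at 3.17 and 2.96 times the mean. Hbb-bh2 had its highest sperm bins 600 bp before and 960 bp after the start site, at 4.23 and 5.20 times the mean. At Hbb-b2 the sperm signal was highest 380 bp before the start site, at 2.51 times the mean, and downstream it was highest at the start site itself, at 1.17 times. The ES cell maximum upstream of Hbb-bh2 lay within 1 bin of the sperm one, 620 bp before the start site, at 2.14 times the mean. At Hbb-y the ES cell maximum upstream lay 840 bp before the start site, away from the sperm one, and the smoothed ES cell signal within 1000 bp downstream reached only 0.248 times the mean.

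**Figure D2:**
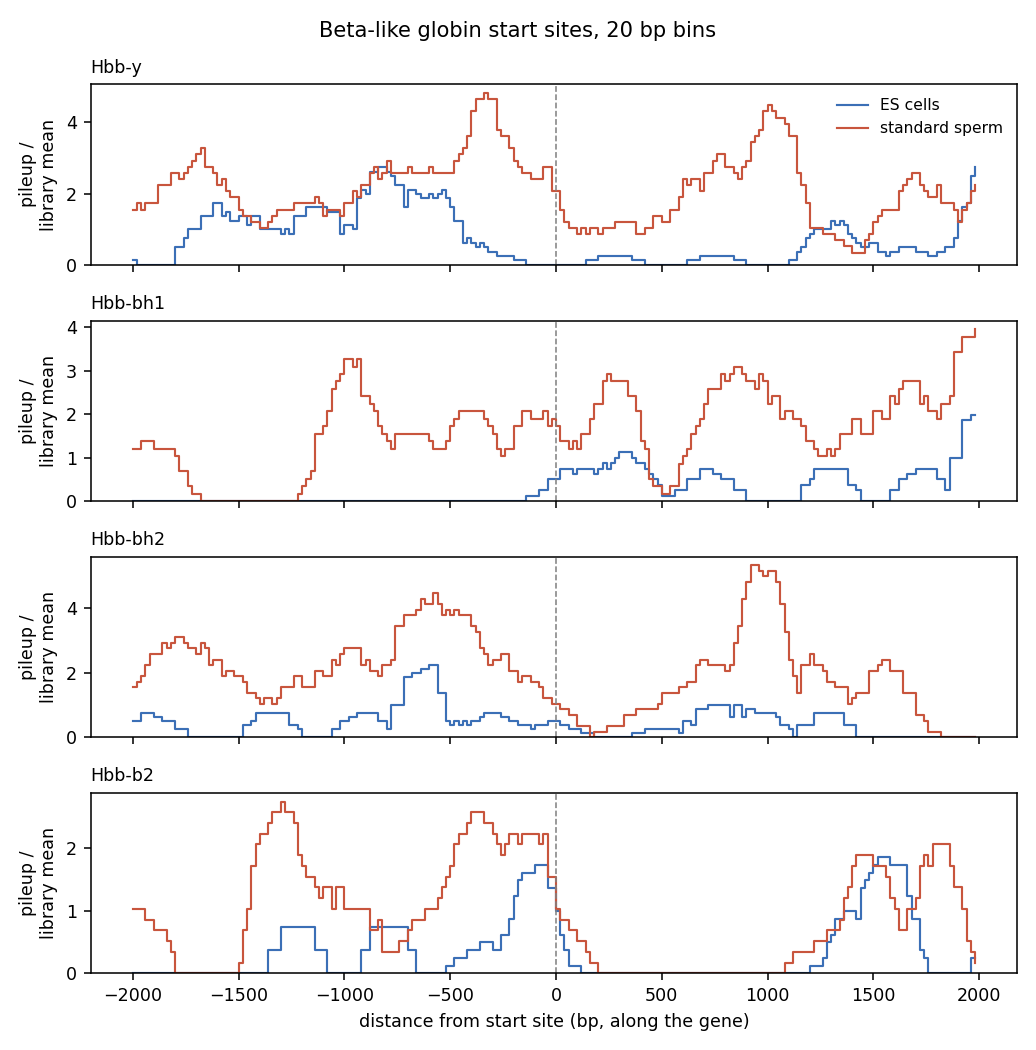
Pileup per 20 bp bin, divided by the library mean per bin (y axis), against distance from the start site in bp along the gene (x axis), for the 4 beta-like start sites in ES cells (blue) and standard sperm (red). The red line lies above the blue one over most of each window, and the Hbb-y start site is empty in ES cells from -140 to 140 bp.

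Long stretches without any fragment crossed several globin genes. Upstream of Hbb-bh1, ES cells had no fragment for 1860 bp, from 2000 to 140 bp before the start site; 5.01% of all start sites had an empty run at least as long in ES cells, and the median longest run was 280 bp. Of the 93 bins of that stretch sperm had signal in 70, and 23 were empty in both libraries. At Hbb-b2 both libraries were empty for 880 bp, from 200 to 1080 bp after the start site, and Hbb-bs was empty in both over the same distances. The adult alpha copies were empty in both from 180 bp before to 900 bp after the start site of the near copy, and to 880 bp after that of the far copy. About 6.03% of start sites had a shared empty run as long as the 1080 bp of the near copy. No bin in these shared stretches had signal in any unspun library. The unspun libraries together would hold only 2.96 fragments within 1000 bp of an average start site. At that depth the lack of unspun signal cannot tell whether these stretches were emptier than average DNA. The promoters of Hba-a1 and Hba-a2, which cover the start of the adult alpha stretch, shared the run of 297 bases given above, whereas the longest run that the promoters of Hbb-bs and Hbb-bt shared was 14 bases, and these promoters end before the empty stretch of the beta genes begins. The treatment of reads with several matching places is not stated in the labels, and the part of shared sequence in any empty stretch was not tested.

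Counting only bins with signal in both libraries lowered the pooled beta-like log2 ratio from 2.03 to 1.61 and that of Hbb-bh1 from 2.66 to 1.67, both still above 1.

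**Figure D3:**
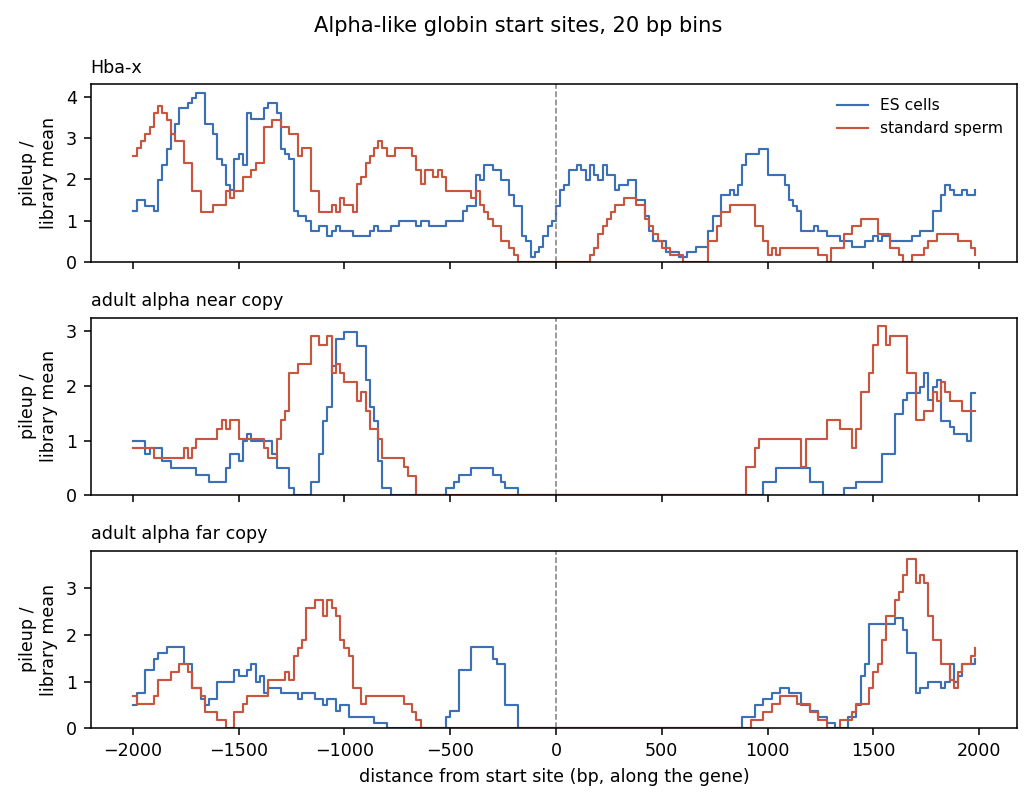
Pileup per 20 bp bin, divided by the library mean per bin (y axis), against distance from the start site in bp along the gene (x axis), for Hba-x and the near and far adult alpha copies in ES cells (blue) and standard sperm (red). Hba-x is empty in sperm from -180 to 160 bp, and both adult copies are empty in both libraries from -180 bp to 880 bp or more.

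The beta-like cluster lies among olfactory receptor genes, and its 10 nearest genes, 5 on each side and up to 93.4 kb away, were all olfactory receptors. All 10 had log2 ratios of sperm to ES cells above 0, and 7 were at least 2-fold higher in sperm. Their median log2 ratio was 1.21, from 0.50 at Olfr633 to 2.64 at Olfr629. Olfr67, the nearest on the adult gene side, held 14.2 fragments in ES cells and 61.8 in sperm, a log2 ratio of 2.62 (1.87 to 3.67), close to that of Hbb-bh1. Over the 236 olfactory receptor genes of chromosome 7, 27.5% were at least 2-fold higher and the median log2 ratio was 0.65. Hbb-y, Hbb-bh1 and Hbb-bh2 lay above the 95th percentile of those receptors, 1.61, and Hbb-b2 below it. Only the interval of Hbb-bh1 (1.77 to 3.82) lies wholly above 1.61, and those of the others include it. The globin genes were chosen on this ratio, so their place among the receptors is a description.

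Around the alpha-like cluster the 10 nearest genes had a median log2 ratio of -0.62, with 9 below 0. Of these, 2 were at least 2-fold lower in sperm, as were 8.7% of all genes: Rhbdf1 at -1.34 (-4.26 to -0.03), on 3.41 sperm fragments, and Stk10 at -1.48 (-3.16 to -0.29), on 5.64. Nprl3, whose introns hold the known alpha-globin enhancers, had 42.8 fragments in ES cells and 26.955 in sperm, a log2 ratio of -0.07 (-0.85 to 0.63). The theta-like globin genes Hbq1b and Hbq1a, beside the adult alpha copies, had log2 ratios of -0.17 and -0.10. Hbq1a, 3.58 kb beyond the far copy, is itself counted among the 10 nearest genes, and Hbq1b, between the copies, is not. The neighbours of the clusters thus had medians of opposite sign, as did the CpG classes, at -0.25 over high-CpG genes and 0.24 over low-CpG genes. Most alpha-like neighbours were classed high-CpG and none of the beta-like ones was. Of all high-CpG genes 12.2% were at least 2-fold lower in sperm. The part of CpG class in the difference between the neighbourhoods was not tested.

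**Figure D4:**
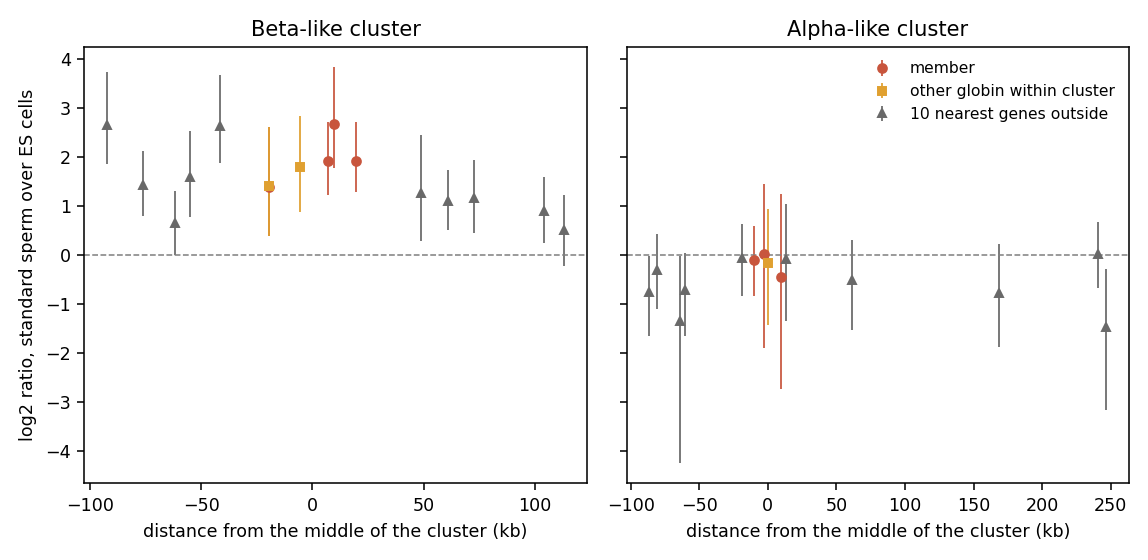
Log2 ratio of standard sperm to ES cells within 1000 bp of the start site (y axis) against distance in kb from the middle of the cluster (x axis), for the globin genes analysed (red circles), other globin genes inside the cluster (orange squares) and the 10 nearest genes outside (grey triangles); bars are exact 95% intervals. All 10 neighbours of the beta-like cluster lie above 0, and 9 of the 10 around the alpha-like cluster lie below it.

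The 4 unspun sperm libraries were not used to choose the genes and were much shallower. The beta-like start sites together held 3 fragments at 0.5 units, 1 at 2 units, 0.318 at 10 units and 4 at 50 units. That made 8.32 in all, where average start sites would hold 11.8, or 0.702 times the average (0.292 to 1.33). Compared with standard sperm the log2 ratio was -1.67 (-2.96 to -0.72), and compared with ES cells 0.37 (-0.96 to 1.37). The beta-like level in unspun sperm thus lay below that in the standard sperm supernatant by more than counting error, while a difference between unspun sperm and ES cells was not detectable at this depth. The first of these differences is a description, since the standard sperm values chose the genes. Within 2000 bp, where the windows of Hbb-bh1 and Hbb-bh2 overlap because their start sites lie 2641 bp apart, the unspun libraries held 9 fragments, 0.384 times the average (0.176 to 0.729), and single genes held 1 to 3 each: Hbb-y 3, Hbb-bh1 3, Hbb-bh2 1 and Hbb-b2 2. The fragments of Hbb-bh1 and Hbb-bh2 all lay within 1000 bp, where the windows do not overlap, so none was counted for both.

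The neighbours of the beta-like cluster stood at 2.12 times an average start site in standard sperm (1.92 to 2.32), 0.837 times in ES cells and 0.490 times in the unspun libraries together (0.258 to 0.793). Within 1000 bp their unspun level was thus below their ES cell level, whereas for the globins the unspun value was the higher of these. The globin interval spans the ES cell value. Within 2000 bp the globin order was reversed, at 0.384 times the average in the unspun libraries and 0.457 times in ES cells. The difference between globins and neighbours was not tested. Low-CpG start sites as a class stood at 1.61 times the average in standard sperm, 1.30 times in ES cells and 0.879 to 1.20 times in the unspun libraries, lowest at 50 units. Standard and unspun sperm differ in the spin and in the digest, which cannot be told apart.

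At the alpha-like start sites the unspun libraries held 0.727, 0, 1.09 and 3 fragments at 0.5, 2, 10 and 50 units, together 0.542 times the average (0.183 to 1.31). Without the 50-unit library this fell to 0.265 times. The log2 ratio of unspun to standard sperm was -0.14 (-1.80 to 1.25). Of these 4.82 fragments 4 were at Hba-x, 1 at 10 units and 3 at 50 units, and the far adult copy had none, within 2000 bp either.

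**Figure D5:**
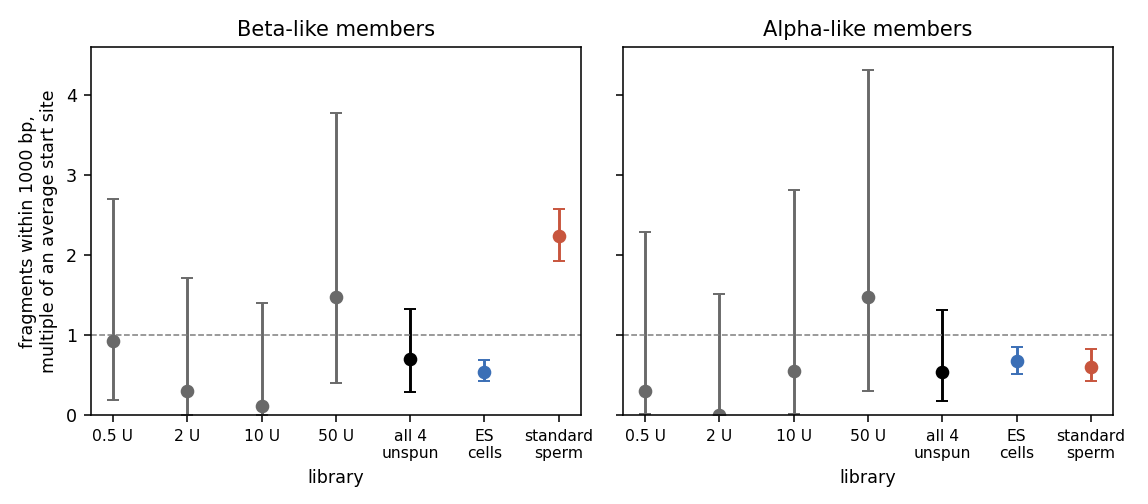
Pooled fragments within 1000 bp of the beta-like (left) and alpha-like (right) start sites as a multiple of an average start site (y axis) in each unspun sperm library (grey, by MNase units), the 4 unspun libraries together (black), ES cells (blue) and standard sperm (red); bars are exact 95% Poisson intervals. Standard sperm stands at 2.24 for the beta-like genes, above the interval of the unspun libraries together, 0.292 to 1.33.

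In the supernatant and pellet series 3 of the genes had rows, Hbb-y, Hbb-bh1 and Hba-x, and the beta-like pair held at most 2.95 fragment equivalents in any of these libraries within 1000 bp. Over the whole deposited windows, 5000 bp to each side, Hbb-y and Hbb-bh1 together held 7.37, 5.90, 7.37 and 6.63 fragment equivalents in the supernatants at 1, 5, 20 and 100 units, and 5.90, 6.63, 4.05 and 2.95 in the pellets. Against the depth of each pellet library these were 3.47 (1.30 to 7.69), 1.78 (0.756 to 3.87), 0.949 (0.255 to 2.40) and 0.418 (0.0876 to 1.24) times the average at 1, 5, 20 and 100 units. The pooled values fall with the units, and the 1-unit interval lies above 1, while neighbouring doses overlap. For the 5-unit and 20-unit pellets the description gives other units than the title, so this order rests on the titles. Taken singly, Hbb-bh1 stood at 6.95, 2.77, 0.345 and 0.835 times the average at these doses. Hbb-y stood at 0, 0.792, 1.55 and 0 times, so the fall of the pair was not seen at Hbb-y. No dose test was run on the members. The supernatants together were at 0.909 times the average (0.593 to 1.31) and the pellets at 1.17 times (0.729 to 1.84), or 1.71 times (1.02 to 2.81) without the 100-unit library. Hbb-bh1 alone stood at 1.76 times in the pellets (1.00 to 2.95), and at 1.17 times without the 1-unit library. Hba-x held 3.69, 2.21, 3.69 and 8.11 in the supernatants, 1.18 times the average (0.711 to 1.90). In the pellets Hba-x had signal at 100 units only, 7.74 fragment equivalents, so without that library its pellet level was 0. Within 1000 bp the beta-like pair stood at 0.613 times the average in the supernatants together (0.181 to 1.70), on 3.69 fragment equivalents. In standard sperm Hbb-y and Hbb-bh1 stood at 2.91 and 2.29 times within that distance. The standard sperm values chose the genes and the deposited signal is of another kind, so this difference was not tested. The pooled pellet level of the pair within 1000 bp was 0.948 times the average. It was 0.206 times without the 1-unit pellet library and 1.84 times without the 100-unit one, so it rests on single libraries. With all 4 libraries pooled, the interval of each cluster included the average start site in both series.

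Other genes of haemoglobin and red cell biology were read in the same way, within 1000 bp, as log2 ratios of sperm to ES cells. Of 6 other globins 5 had a row and none had a log2 ratio above 0. Cygb, cytoglobin, held 34.955 fragments in ES cells and 3.73 in sperm, a log2 ratio of -2.35 (-4.51 to -1.07), and Mb (myoglobin) and Ngb (neuroglobin) had -0.53 and -0.34. Of 18 erythroid transcription factors, which bind or regulate the globin clusters, none was at least 2-fold higher in sperm and 5 were at least 2-fold lower, with a median of -0.61; over all genes 7.61% were higher and 8.7% lower by that fold, the background for each list here. Bcl11a, a repressor of embryonic globin genes, stood at -1.09, Gfi1b at -1.05, Sox6 at 0.09 and Runx1 at 0.35. The 15 genes of haem synthesis and iron had a median of -0.12 and 1 at least 2-fold higher, Slc25a37 (the mitochondrial iron importer of red cells), at 1.45; Hp stood at 0.46, Urod at -0.78 and Fech at -0.93. Of 25 red cell membrane and other erythroid genes 3 were at least 2-fold higher and 1 lower, with a median of 0.07. Rhag, a membrane protein of the Rh complex, stood at 1.48, whereas Slc4a1 (band 3) stood at -1.09 and Ank1 (ankyrin) at -0.96.

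Profiles most like those of the clusters were sought among 14907 genes with enough signal, by Pearson's r over 40 values, the 20 bins of 200 bp in each of both libraries. Closest to the summed beta-like profile were Skint4, Skint9 and Skint3 of chromosome 4, with r of 0.81, 0.80 and 0.79. These 3 held 0 fragments in ES cells within 1000 bp, which allows up to 3, and 51.5, 91.4 and 83.955 in sperm. Closest to the alpha-like profile were Ptprk, Ccdc71l and Stk17b, with r of 0.80, 0.79 and 0.77. The 40 values share libraries and bins, so r is a description.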

How the data were processed

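MNase fragments were sequenced as paired ends. The submitters' processing notes name Bowtie, SAMtools 0.1.16 and the build mm9; read filters and the handling of reads with several matches were not stated. For ES cells, standard sperm and the 4 unspun libraries the authors deposited a signal, the pileup of fragments of 135 to 165 bp in bins of 20 bp, within 2000 bp of 28015 start sites and without depth scaling. For the other 8 sperm libraries the deposited signal is coverage in 200 bins at 16493 start sites, read here as 50 bp bins because overlapping windows match at that width and not at the 20 bp of the header. Of 17 samples 3 were not analysed here. For the 5-unit and 20-unit pellet samples the units in title and description disagree, and the title was used.

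Fragment equivalents are sums divided by 22 (pileup), the median of isolated signal, or by 2.71 (coverage), from its mean. In the 1-unit libraries the mean isolated signal was lower, 2.00, so theirs are too low. Ratios of single start sites to library totals had a pseudocount of 1 fragment, and intervals are exact (conditional binomial or Poisson), without molecular identifiers. Repeats of a start site were counted once, leaving 24084 pileup and 16482 coverage start sites. Symbols came from RefSeq (GRCm38.p6), for names and promoter sequence only. The ratio was tested on simulated data. Python 3.11.15, numpy 2.4.6, scipy 1.17.1 and pandas 2.3.3 were used.

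The genes, lists and comparisons were chosen with earlier results of these data known. Genes named outside the globins were the 5 nearest on each side of each cluster, every other globin, the 2 highest and 2 lowest ratios of each other list among genes with at least 40 fragments, and the 3 most alike profiles. One gene that this rule names is not reported here. Alternatives were other windows, scalings, folds, flanks and bin widths, no pseudocount, bins with signal in both libraries, other pooled genes and leaving out titration libraries. The last 3, and the wider window for ratios of unspun libraries, were chosen after seeing the data.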

Additional observations from a re-analysis of the deposited data

How the results depend on the processing

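Of the recomputed values, 150 stayed within the interval of the value reported, or within 1.5 times a reported count, 9 did not, and none reversed a called direction. Within 200 bp the log2 ratio of sperm to ES cells was 3.76 at Hbb-y, -2.56 at Hba-x and -2.59 for the pooled alpha-like genes. With only bins that held signal in both libraries it was 1.67 at Hbb-bh1 and 1.61 for the pooled beta-like genes. Another, the upstream ratio of the alpha-like genes in standard sperm, rests on under 1 fragment and was 0.0042, and 0.0057 with flanks of 500 to 1500 bp. The beta-like pellet level within 1000 bp was 0.206 times the average without the 1-unit library. The alpha-like level was 0 without the 1-unit supernatant (within 1000 bp) and 0 without the 100-unit pellet (within 5000 bp). For these values the cause was not tested. Scaling to low-CpG start sites changed every log2 ratio of sperm to ES cells by -0.31, to 1.72 for the pooled beta-like genes and 1.61 at Hbb-y, and took the near adult alpha copy from 0.02 to -0.28; setting the median to 0 moved them by 0.06, and the median of all start sites within 200 bp was 0.23. No paired analysis was possible because each group held 1 library and no result comes from a test; supernatants and pellets of the same units were not compared. Depth limits the titration libraries to pooled genes.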
